A study of Homo sapiens with 6 samples.

Results

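Mitochondrial ribosomal protein genes are nuclear genes for the proteins of the mitoribosome, the ribosome inside mitochondria. Members were taken by symbol: autosomal protein-coding genes of the RefSeq annotation named MRPL or MRPS followed by digits, with readthrough genes left out. The rule found 77 genes among 19122 autosomal protein-coding genes, 49 named MRPL for the large subunit and 28 named MRPS for the small subunit. The AP-1 subunits FOSL2, of the FOS family, and JUNB, of the JUN family, were mapped by ChIP-seq in HaCaT, an immortalised line of human skin keratinocytes, in a series on the regulatory effects of alleles linked to atopic dermatitis. The 6 libraries, 3 for FOSL2 and 3 for JUNB, came from the same line with no treatment named, and each factor had its own antibody. Each factor had 1 deposited list of regions for its 3 libraries together, with 75704 rows for FOSL2 and 40061 for JUNB. No value below therefore has a replicate error, the depth of the libraries is unknown, and intervals over genes cover counting error only. Genes are not replicates, and no test was made on a list chosen by gene family.

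The mitoribosome translates the few messenger RNAs of the mitochondrial genome, all of which encode subunits of the respiratory chain and ATP synthase. All of its proteins are made in the cytosol from nuclear genes and imported, while its RNAs come from the mitochondrial genome. AP-1 dimers recognise the TGANTCA element, and mitochondrial protein genes are known instead for promoter elements of ETS factors, NRF1 and YY1.

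Regions of the 2 factors lay within 1 kb of an end of 44 of the 77 genes (57.1%, exact 95% interval 45.4 to 68.4), where 43.1% of all autosomal protein-coding genes had one. A FOSL2 region lay that near to 33 members (42.9%, 31.6 to 54.6), against 31.9% of all genes. A JUNB region did so for 29 members (37.7%, 26.9 to 49.4), against 30.2% of all genes. The interval of the share for either factor lay above its background, while each factor's own interval still held its background, for FOSL2 at the lower edge.

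Regions were divided into shared regions, which overlapped a region of the other list by 1 bp or more, and JUNB-only or FOSL2-only regions, which had none. Other genes were weighted so that their number of neighbouring genes within 100 kb was distributed like that of the members. FOSL2-only regions lay within 1 kb of 20 members (26.0%, exact interval 16.6 to 37.2), against 15.8% of all genes and 16.0% of other genes of the same density. JUNB-only regions lay within 1 kb of 15 members (19.5%, 11.3 to 30.1), against 14.5% of all genes and 14.7% at the same density. Shared regions also lay within 1 kb of 15 members, with MRPS30 in both counts (19.5%, 11.3 to 30.1), against 18.0% of all genes and 18.5% at the same density. Of the 3 classes, only FOSL2-only had an interval that did not reach the weighted value. With regions of −log10 q of at least 10 that share fell to 15.6%, against 14.4% of other genes, while the JUNB-only share was 14.3%, against 7.24%.

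**Figure D1:**
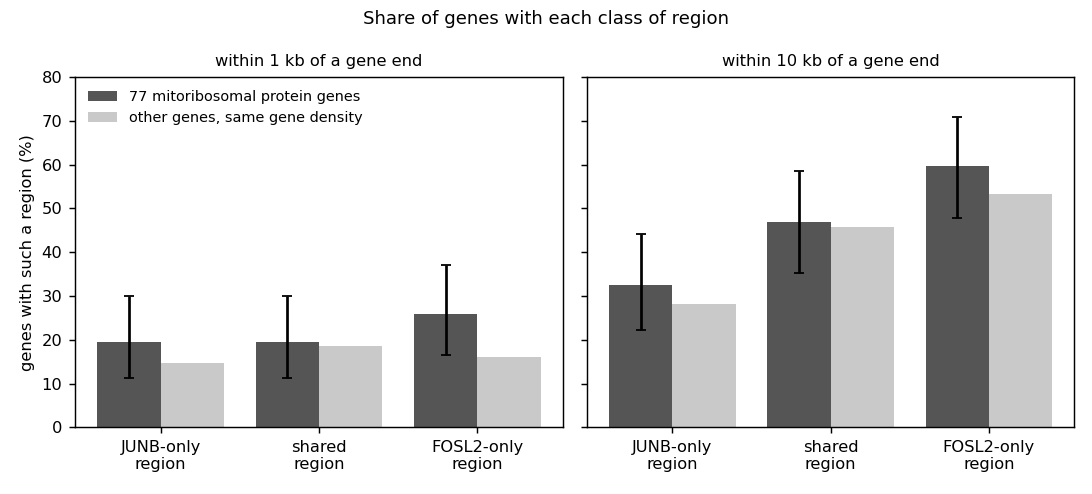
Share of genes (%, vertical axis) with a JUNB-only, shared or FOSL2-only region within 1 kb (left) and 10 kb (right) of either gene end. Dark bars are the 77 mitoribosomal protein genes with exact 95% binomial intervals, and light bars are other autosomal protein-coding genes weighted to the same local gene density. The dark bars are 19.5, 19.5 and 26.0% at 1 kb, and the light value lies below the interval only for FOSL2-only regions at 1 kb.

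Within 10 kb of an end, 63 of the 77 genes had a region of either factor (81.8%, exact interval 71.4 to 89.7), against 77.0% of all genes. The FOSL2 share was 75.3% (58 genes), against 71.5% of all genes. The JUNB share was 66.2% (51 genes), against 57.5% of all genes. JUNB-only regions were within 10 kb of 25 members (32.5%), against 27.2% of all genes and 28.1% at the same density. Shared regions were within 10 kb of 36 members (46.8%), against 44.6% and 45.7%, and FOSL2-only regions of 46 members (59.7%), against 53.0% and 53.3%. The interval of each of these shares held its background, and a member had at most 4 FOSL2 and 3 JUNB regions in this span.

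Members are short genes, with a median length of 8618 bp, against 24620 bp for the others, and the weights did not include length. Among genes no longer than the members' median, 59.0% of 39 members and 37.1% of 4664 other genes had a region of either factor within 1 kb. Among longer genes the shares were 55.3% of 38 members and 44.9% of 14381 others. For JUNB the short members stood at 43.6%, against 25.1% of short other genes, and the long members at 31.6%, against 31.9% of long ones. For FOSL2 the members were higher in both groups, at 41.0% against 28.4% for short genes and 44.7% against 33.0% for long ones.

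The shares of MRPL and MRPS genes, divided by name, lay within each other's intervals. A region of either factor lay within 1 kb of 27 of 49 MRPL genes (55.1%, exact interval 40.2 to 69.3) and 17 of 28 MRPS genes (60.7%, 40.6 to 78.5). JUNB was at 36.7% of MRPL and 39.3% of MRPS genes, and FOSL2 at 42.9% of both.

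Most regions at these genes were of low or middling strength. Strength is the authors' fold enrichment of each region over background, a linear ratio that was compared only within its own list. The 36 FOSL2 regions within 1 kb of members had a median fold enrichment of 4.42 (interquartile range 3.26 to 6.20), against 5.16 for the 5891 FOSL2 regions within 1 kb of other genes and 5.56 for the whole list. The 31 JUNB regions had a median of 4.64 (4.01 to 5.98), against 4.30 for the 5481 near other genes and 4.79 for the whole list. The FOSL2 regions of members were thus weaker than FOSL2 regions at other genes, while JUNB regions were slightly stronger than theirs, and neither difference was tested. Of the 36 FOSL2 regions 1, at MRPS16, was among the strongest 10% of its list, and of the 31 JUNB regions 1, at MRPL28, was.

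By class, the 16 shared FOSL2 regions had a median of 5.21 and the 20 FOSL2-only regions 3.48, against 6.09 and 4.36 near other genes. The 16 shared JUNB regions had a median of 5.37 and the 15 JUNB-only regions 4.24, against 4.86 and 3.76 near other genes. Shared regions were 16 of the 31 JUNB regions within 1 kb of members (51.6%), and 2981 of the 5481 near other genes. In the whole JUNB list, which also holds regions far from genes, they made up 78.5%. For FOSL2 they were 16 of 36 near members (44.4%), 3079 of 5891 near other genes and 41.1% of the whole list. These differences were not tested.

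**Figure D2:**
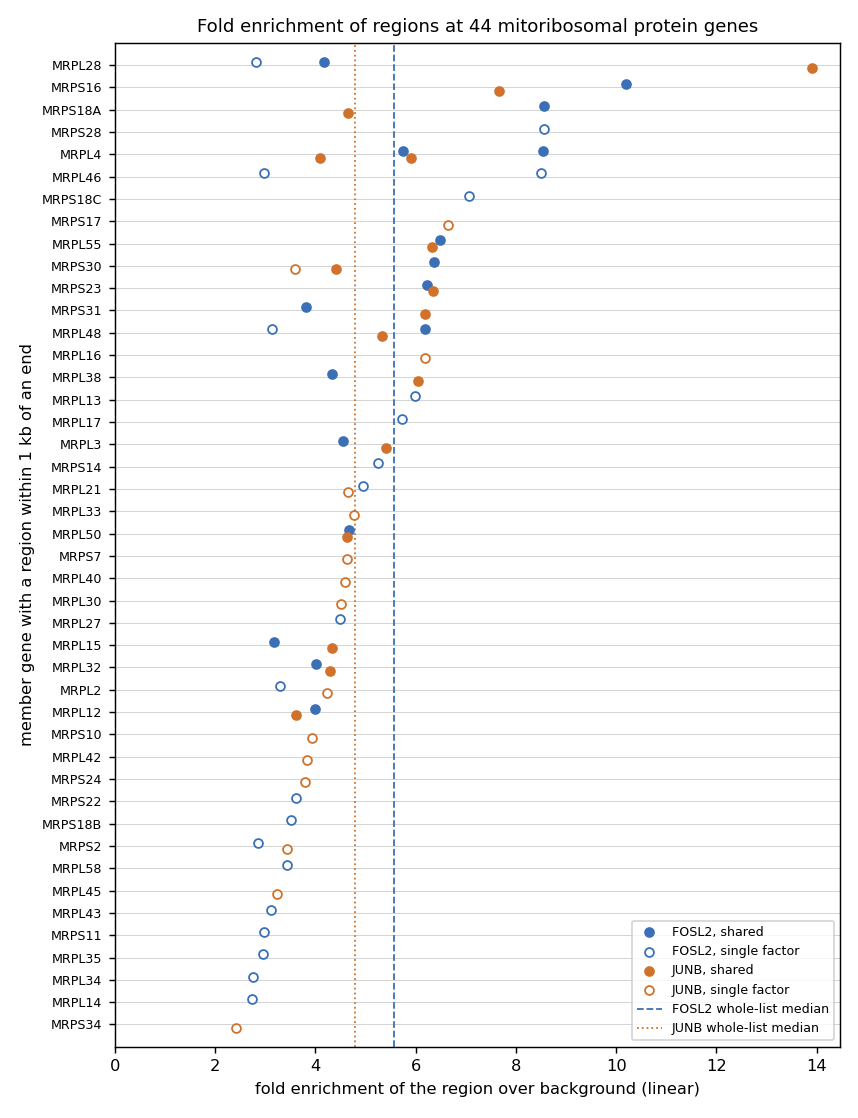
Fold enrichment (linear, horizontal axis) of every FOSL2 (blue) and JUNB (orange) region within 1 kb of an end of the 44 members that had one, ordered by the highest value. Filled points are shared regions, open points are single-factor regions, and the lines mark the medians of the whole lists (5.56 and 4.79). Most points lie left of their line, and the JUNB region of MRPL28 at 13.9 stands apart.

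The strongest JUNB region of the family was at MRPL28, which encodes a large-subunit protein. It had a fold enrichment of 13.9, higher than 99.9% of the JUNB list, on chromosome 16 from 370386 to 371325 (hg38). Its summit lay 109 bp before the annotated start of the gene, and the summit of the FOSL2 region there lay at the same distance. That FOSL2 region had a fold enrichment of only 4.18, higher than 30.2% of its list. A further FOSL2-only region of 2.82 lay 827 bp after the start. These regions are also within 1 kb of an end of PGAP6, so they cannot be assigned to MRPL28 alone. Another gene end was within 1 kb of 15 of the 36 FOSL2 and 12 of the 31 JUNB regions near members, and the same limit holds for each.

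MRPS16, which encodes a small-subunit protein with a bacterial counterpart, was the member with the strongest FOSL2 region within 1 kb, at 10.2 on chromosome 10 from 73251938 to 73253099. Its shared JUNB region reached 7.67, and the summits lay 170 bp (FOSL2) and 218 bp (JUNB) after the start. An end of CFAP70 also lay within 1 kb of this site. A shared pair of 11.7 and 8.47 began 9422 and 9469 bp before the start.

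The other shared pairs at genes with large-subunit names were less strong within their lists for JUNB than MRPL28. MRPL55 had 6.48 for FOSL2, higher than 60.3% of that list, and 6.32 for JUNB, higher than 72.8% of its own. MRPL48 had 6.19 and 5.33. MRPL4 carried shared pairs at both ends of the gene, with 5.75 and 4.09 at the start and 8.55 and 5.91 at the other end. MRPL3, whose protein lies near the catalytic centre of the ribosome, had 4.56 and 5.40, and MRPL38 had 4.33 and 6.04. The FOSL2 region of MRPL38 was higher than 33.0% of its list and the JUNB region higher than 69.2%. MRPL12, whose protein forms the ribosomal stalk and binds the mitochondrial RNA polymerase, had a weak pair at its start of 3.99 and 3.62. Its stronger pair, of 10.7 and 8.41, lay 3804 and 4192 bp from an end of the gene and within 1 kb of SLC25A10.

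Among small-subunit names with a shared pair, MRPS23 had 6.23 (FOSL2) and 6.34 (JUNB), and MRPS31 had 3.82 and 6.19. MRPS18A and MRPS30 carry small-subunit names although their proteins sit in the large subunit. MRPS18A had 8.56 and 4.66, with summits 88 bp after and 15 bp before the start. MRPS30 had 6.36 and 4.41, with a further JUNB-only region of 3.59 centred 302 bp after the start. Over the 16 shared pairs within 1 kb of members the median distance between the FOSL2 and JUNB summits was 62.5 bp, the interquartile range 38.2 to 102 bp, and the widest distance 130 bp.

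JUNB without any FOSL2 region within 1 kb was found at 11 members (14.3%), against 11.3% of other genes of the same density. MRPS17, a small-subunit gene with a bacterial counterpart, had the strongest such region at 6.65, with the summit 28 bp before the start. MRPL16 followed with 6.18, its summit 5 bp after the start. MRPL33 had 4.77 (59 bp after), MRPS7 4.64 (19 bp before) and MRPL40 4.60 (84 bp before). The regions of MRPS7 and MRPL40 also lay within 1 kb of an end of GGA3 and HIRA. MRPL45, whose protein anchors the mitoribosome at the inner membrane, had a JUNB-only region of 3.23 inside the far end of the gene, 25121 bp after the start. The remaining members were MRPL30 (4.52), MRPS10 (3.93), MRPL42 (3.84), MRPS24 (3.79) and MRPS34 (2.42).

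FOSL2 without any JUNB region within 1 kb was found at 15 members (19.5%), against 13.0% of other genes of the same density. The highest value was 8.56 at MRPS28, in a region also near TPD52. MRPL46 had 8.50 inside the gene, with the summit 1314 bp after the start, and MRPS18C had 7.07 with the summit 179 bp before the start. MRPL13 (5.99), MRPL17 (5.72) and MRPS14 (5.26) came next. MRPL46 and MRPS11 lie next to each other and had the same region of 2.97 between them, with the summit 216 and 104 bp before their starts. MRPL58, which encodes a peptidyl-tRNA hydrolase built into the large subunit, had 3.43 at 92 bp after the start, and MRPS18B had 3.52 at 451 bp before it. MRPL2, MRPL21 and MRPS2 had regions of both factors within 1 kb that did not touch each other.

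No region of either factor lay within 1 kb of an end of 33 members (42.9%), against 56.2% of other genes of the same density. None lay within 10 kb of 14: MRPL1, MRPL19, MRPL20, MRPL23, MRPL39, MRPL41, MRPL51, MRPL54, MRPS5, MRPS6, MRPS12, MRPS25, MRPS26 and MRPS33. MRPS12, whose protein belongs to the decoding centre, shares its start with SARS2, a mitochondrial seryl-tRNA synthetase gene. These 14 make up 18.2% of the family, against 22.1% of other genes of the same density. A missing region says only that none is in these lists. MRPL44, a large-subunit gene with an RNase III-like product, had no region within 1 kb of an end, but a JUNB-only region of 6.26 was centred 53 bp before its annotated start, which lies 6609 bp inside the longest gene model. MRPL24 likewise had a JUNB-only region of 3.54 centred 109 bp before a start 1628 bp inside the gene.

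Over all regions within 10 kb of members the median fold enrichment was 4.85 for the 112 FOSL2 regions and 4.64 for the 74 JUNB regions, close to the values at 1 kb. Counting the highest value per member, the FOSL2 median was 4.50 over the 33 members with a region within 1 kb and 6.33 over the 58 with a region within 10 kb. For JUNB it was 4.64 over 29 members and 5.01 over 51, where a wider span also offers more regions to choose from. Beyond 1 kb, high FOSL2 values were 11.7 at MRPL22 (6208 bp from an end, with a JUNB region of 9.53), 11.0 at MRPL11 and 11.0 at MRPL9, all in shared regions. These were named after their values were seen.

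Strand and an annotated start were given for 69 members, and the start was an end of the longest gene model for 61 of them. A JUNB region lay within 1 kb of the start of 27 of the 69 (39.1%, exact interval 27.6 to 51.6), against 28.7% of the 15100 genes with a start, and a FOSL2 region did so for 25 (36.2%, 25.0 to 48.7), against 28.0%. JUNB-only and shared regions were each there at 14 members (20.3%), against 14.0 and 15.9%, and FOSL2-only regions at 13 (18.8%), against 12.9%. JUNB summits lay close to the starts, a median of 76.5 bp away in either direction over 28 regions, against 176 bp at other genes. FOSL2 summits were a median of 147 bp away, against 258 bp. For JUNB-only regions the medians were 56.0 and 159 bp. The difference was not tested.

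**Figure D3:**
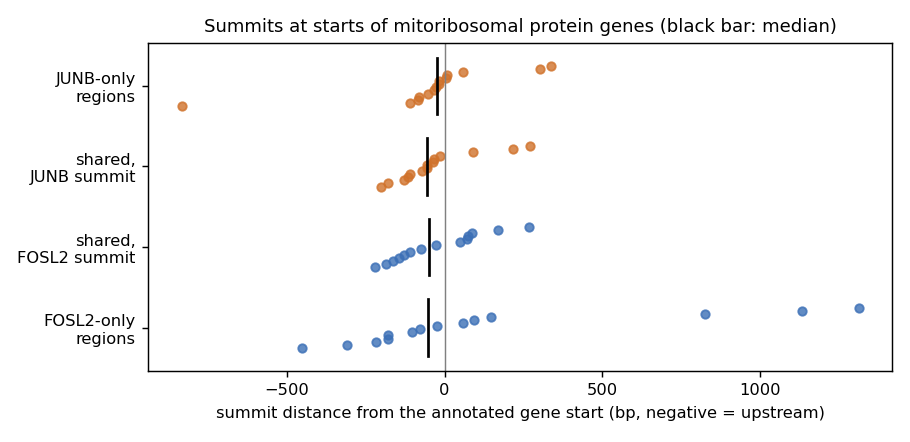
Summit positions of regions within 1 kb of the annotated start of a member, in bp from the start (negative is upstream), by class. Each point is 1 region at 1 gene and the black bars are medians. JUNB-only summits centre 23.5 bp upstream, with 1 at 832 bp upstream (MRPS2), and the FOSL2-only summits spread from 451 bp upstream to 1314 bp downstream.

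Many of these genes share their start region with a neighbour. A start of 35 members (45.5%) lay within 1 kb of an end of another protein-coding gene, against 20.1% of other genes. For the 8 members with no start in the promoter table both ends were used. Among the 35, FOSL2-only regions were within 1 kb of 15 (42.9%, exact interval 26.3 to 60.6), against 19.4% of the 3827 other genes with such a neighbour. Shared regions were within 1 kb of only 3 of them (8.57%, 1.80 to 23.1), against 24.1% of those genes. The 42 members without a neighbour at the start showed the opposite order, with shared regions at 12 (28.6%, 15.7 to 44.6) and FOSL2-only regions at 5 (11.9%, 3.98 to 25.6), against 16.5 and 14.9% of the 15218 other genes without a neighbour. JUNB-only regions were at 7 of the 35 (20.0%) and 8 of the 42 (19.0%), against 19.1 and 13.3% of other genes of each kind. Of the 15 FOSL2-only regions at the 35 genes, 11 were also within 1 kb of an end of another gene. By position, 8 lay within 1 kb of the annotated start and 2 only at the other end. The remaining 5 were at genes with no start in the promoter table, where either end could count. Of the 15, those at MRPL43, MRPL28, MRPL34, MRPL35, MRPS18B, MRPL2, MRPL14 and MRPS2 had a −log10 q under 10. With only regions of at least 10 counted, the FOSL2-only share of all 77 members was 15.6%, against 14.4% of other genes. The division by neighbour was not repeated at that cut. Whether the kinds of start differ was not tested.

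The 300-base promoter windows of the 69 members (250 bases before the start and 50 after, RefSeq, GRCh38.p14) held an AP-1 element in 1 case (1.45%). TGANTCA was searched on both strands and occurred in 0 of the 37 windows of members with a region of either factor within 1 kb of the start, which allows a share of up to 9.49% (exact 95% limit). The same search found it in 7.02% of all windows of such genes, in 5.70% of the 15100 windows, and in 7.76% of all 27305 windows of the table, so a difference was not detectable with this number of members. MRPS35, which had no region within 1 kb of its start, held the 1 match, at position -215 from the start. The cyclic AMP response element TGACGTCA was in none of the 69 windows, which allows up to 5.21%, and in 2.65% of the 15100. The windows are shorter than most regions, so an element elsewhere in a region would be missed, and no match says only that these letters are not in this window.

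Of the elements known from mitochondrial protein genes, those of ETS factors and YY1 were frequent. The ETS core CCGGAAG, searched on both strands like the others, was in 29 of 69 windows (42.0%), against 14.4% of the 15100. It was in 48.6% of the 37 windows with a region at the start and in 34.4% of the 32 without. Over all genes the same split gave 20.3 and 10.4%. The YY1 element AAGATGGC was in 20 windows (29.0%), against 3.91% of the 15100. It was in 29.7% with and 28.1% without a region, against 5.62 and 2.76% over all genes. The NRF1 element GCATGCGC was in 6 windows (8.70%), against 4.19%. At least 1 of these 3 was in 42 windows (60.9%), against 20.3% of all. The SP element GGGCGG (60.9%, against 58.9%) and the CCAAT box CCAAT (29.0%, against 36.0%) were near the background. Matches of ETS and SP overlapped in the window of MRPL53, and no other matches of different motifs overlapped in members. ETS matches lay mostly just before the start, 33 of 39 upstream and 21 of them in the last 50 bases, while 15 of 21 YY1 matches began at or after it. FOSL2 regions covered 16 and JUNB regions 13 of the 39 ETS matches. A match is a description of letters and not evidence of a bound protein.

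**Figure D4:**
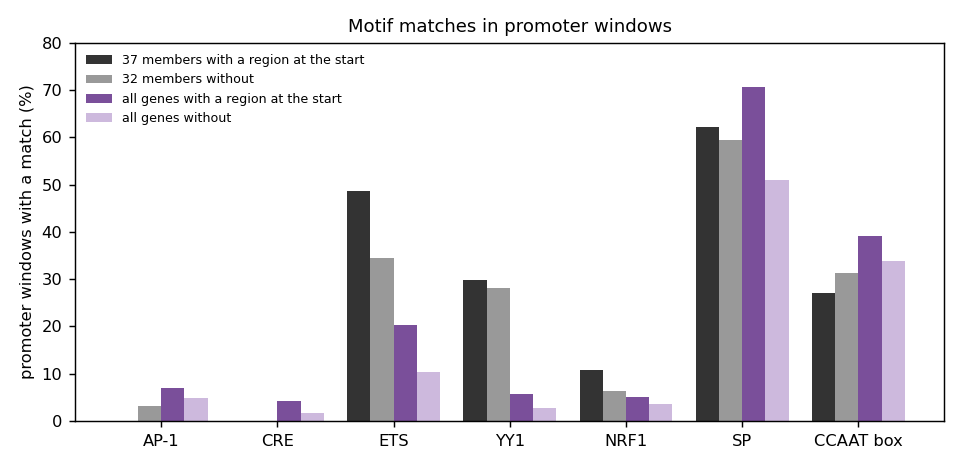
Share of 300-base promoter windows (%, vertical axis) with a match to each motif, for the 37 members with a region within 1 kb of the start, the 32 members without, and all autosomal protein-coding genes divided in the same way. The AP-1 and CRE bars of members with a region are at 0, and the ETS and YY1 bars of both member groups are above those of all genes.

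The bases before the start are shown for members of each kind, with some of the searched elements marked. The JUNB summit of MRPL33 and the FOSL2 summits of MRPS18A, MRPS23 and MRPL17 lay outside the stretch shown. The stretch is the last 150 bases before the start on the gene's strand, 5′ to 3′ (RefSeq, GRCh38.p14), with ETS and NRF1 matches, and the CCAAT box of MRPS17, in capitals; CTTCCGG is the ETS core read on the other strand. MRPS23 and MRPS18A had shared regions, MRPS17 and MRPL33 JUNB-only regions and MRPL17 a FOSL2-only region, while MRPS26 had none. SP matches also stand in the stretches of MRPS18A, MRPS17, MRPL17 and MRPS26 and are not marked. No stretch holds TGANTCA.
MRPS23, chr17:57850045-57850194, minus strand: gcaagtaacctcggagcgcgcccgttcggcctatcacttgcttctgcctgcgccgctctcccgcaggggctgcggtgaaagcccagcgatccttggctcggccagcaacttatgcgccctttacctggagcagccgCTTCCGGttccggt
MRPS18A, chr6:43687792-43687941, minus strand: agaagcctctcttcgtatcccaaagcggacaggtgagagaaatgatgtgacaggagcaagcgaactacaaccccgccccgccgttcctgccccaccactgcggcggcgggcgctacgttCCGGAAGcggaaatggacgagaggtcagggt
MRPS17, chr7:55951727-55951876, plus strand: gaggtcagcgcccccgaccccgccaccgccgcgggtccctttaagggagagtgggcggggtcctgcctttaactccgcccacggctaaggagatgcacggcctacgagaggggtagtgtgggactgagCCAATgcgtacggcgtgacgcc
MRPL33, chr2:27771569-27771718, plus strand: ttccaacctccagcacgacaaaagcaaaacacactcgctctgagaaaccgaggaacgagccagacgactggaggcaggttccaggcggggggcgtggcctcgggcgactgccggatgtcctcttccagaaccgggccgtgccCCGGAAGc
MRPL17, chr11:6683341-6683490, minus strand: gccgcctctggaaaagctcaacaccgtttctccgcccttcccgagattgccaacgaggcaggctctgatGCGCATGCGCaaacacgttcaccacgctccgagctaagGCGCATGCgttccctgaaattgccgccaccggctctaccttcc
MRPS26, chr20:3045902-3046051, plus strand: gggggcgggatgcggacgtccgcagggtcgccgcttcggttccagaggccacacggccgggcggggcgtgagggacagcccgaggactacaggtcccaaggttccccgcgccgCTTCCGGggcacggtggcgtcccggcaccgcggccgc

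A YY1 match at or after the start was found in 10 of the 11 members with a match and a region at the start, and in 5 of the 9 with a match and no region there, the others having matches only upstream. The side of the match was not counted over all genes, and this difference was not tested. Of the 15 members with a match at or after the start, 5 were chosen to show it. The first 30 bases from the start are given on the gene's strand with the match in capitals. They are MRPL42 and MRPS10 (JUNB-only), MRPS18A and MRPS30 (shared) and MRPL20 (none within 10 kb).
MRPL42, chr12:93467514-93467543, plus strand: attgaaacAAGATGGCgggttcgtggtgag
MRPS10, chr6:42217832-42217861, minus strand: gggaccggcAAGATGGCggcgcggacagcg
MRPS18A, chr6:43687762-43687791, minus strand: aggtttttgAAGATGGCggccctcaaggct
MRPS30, chr5:44808947-44808976, plus strand: ggaatcgcgggcaAAGATGGCggcggccag
MRPL20, chr1:1407264-1407293, minus strand: atttccgacccgggcAAGATGGCagcggcg

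Other genes of mitochondrial translation were counted in the same way, each list by the share of its genes with a region within 1 kb of an end. Of 14 translation factor genes 10 had a JUNB region (71.4%, exact interval 41.9 to 91.6), against 30.7% of other genes of the same density, and 7 had a FOSL2 region, against 32.2% of such genes. The highest JUNB values were at MTRF1 (11.1 for FOSL2 and 8.24 for JUNB), a release factor gene, MTIF2 (5.26 and 5.61), an initiation factor gene, and TSFM (4.65 and 5.26), an elongation factor gene. Of 25 assembly and rRNA modification genes 14 had a FOSL2 region (56.0%, against 32.9% at the same density) and 10 a JUNB region (40.0%, against 31.4%). They were led for JUNB by FASTKD2 (8.86 and 6.77), MTERF4 (5.60, JUNB-only) and RPUSD4 (8.86 and 5.07). Of 19 mitochondrial aminoacyl-tRNA synthetase genes 11 had a FOSL2 region (57.9%, against 32.0%) and 8 a JUNB region (42.1%, against 30.5%), led for JUNB by TARS2 (9.17 and 6.53), NARS2 (5.40, JUNB-only) and EARS2 (4.85 and 4.43). FOSL2-only regions were at 8 of the 19 synthetase genes (42.1%, exact interval 20.3 to 66.5), against 15.7% at the same density. They were at 3 of the translation factor genes (21.4%, against 16.2%) and 5 of the assembly genes (20.0%, against 16.2%). Of 5 mitoribosomal protein genes under other names, AURKAIP1 had a shared pair (4.80 and 6.53), PTCD3 a FOSL2-only region (4.66), and DAP3, CHCHD1 and GADD45GIP1 none within 1 kb.

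Cytosolic ribosomal protein genes had a JUNB region within 1 kb in 39 of 73 cases (53.4%, exact interval 41.4 to 65.2) and a FOSL2 region in 35 (47.9%), against 31.8 and 33.6% of other genes of the same density, and 37.7 and 42.9% of the mitoribosomal genes. Their shared regions were at 24 genes (32.9%) and FOSL2-only regions at 13 (17.8%), against 19.2 and 16.6% at the same density, and 19.5 and 26.0% of the mitoribosomal genes. Nuclear genes of the respiratory chain were counted together with those of ATP synthase. They had a JUNB-only region in 21 of 71 cases (29.6%), a shared region in 13 (18.3%) and a FOSL2-only region in 17 (23.9%), against 14.7, 18.6 and 16.1% of other genes of the same density. RPL17, RPL24 and RPL18 had the highest JUNB values of the first list (10.2, 7.92 and 7.08), and NDUFA6, ATP5PD and NDUFB3 of the second (5.91, 5.78 and 5.76). The lists were set side by side as values, and differences between them were not tested.

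**Figure D5:**
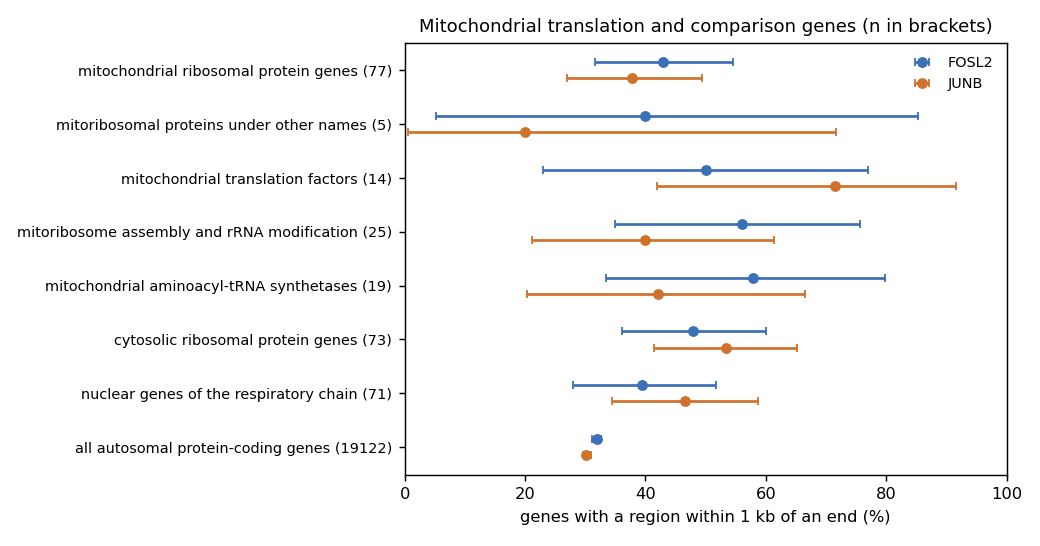
Share of genes (%, horizontal axis) with a FOSL2 (blue) or JUNB (orange) region within 1 kb of an end, for the 77 mitoribosomal protein genes, 4 lists of mitochondrial translation, 2 comparison lists and all 19122 autosomal protein-coding genes. Points are shares and bars are exact 95% binomial intervals over genes; the mitoribosomal intervals overlap those of every other list shown, and the widest belong to the lists of 5 and 14 genes.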

How the data were processed

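Libraries were prepared by ChIPmentation, per the labels' protocols. The submitters' processing notes name Bowtie2, SAMtools 1.8, Picard 1.89, MACS2, deepTools and hg38, without roles, and how the 3 libraries of a factor were combined is not given in the sources used here. The deposited lists hold 1 row per region with a score (10 times the −log10 p, within 1), a fold enrichment (a ratio over background), −log10 p and −log10 q, and a summit offset, as the authors' peak caller wrote them. No spread between replicates or depth could be computed.

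Genes, ends and starts came from RefSeq tables of GRCh38.p14, which shares coordinates with hg38. A region was near a gene when any base lay within 1 kb or 10 kb of either end. Reference shares were weighted to the members' deciles of genes within 100 kb. Intervals are exact binomial (95%). Python 3.11.15, numpy 2.4.6, pandas 2.3.3 and scipy 1.17.1 were used, and the distance and overlap code was checked on made-up intervals against direct counting. Opposite-strand promoter windows that overlap were reverse complements in 687 of 687 pairs.

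The members and lists were chosen with earlier results of these data known. Members were named by rule: the 6 highest for each factor within 1 kb, the 6 highest JUNB-only, the 6 highest FOSL2-only without JUNB, all with no region within 10 kb, and MRPL12, MRPL44, MRPL58, MRPS12, MRPS18A to MRPS18C and MRPS30 always; in other lists the 3 highest for JUNB. Other members named, and the sequences shown, were chosen after their values were seen. Of 27 assembly genes listed, 25 were autosomal and protein-coding here.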

Additional observations from a re-analysis of the deposited data

How the results depend on the processing

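No paired analysis was possible because each factor had 1 list for its 3 libraries, so no library could be left out. Of 66 alternative shares, 53 stayed within the exact interval of the reported share and on the same side of the weighted other genes, and all 8 alternative medians of fold enrichment stayed within the exact order-statistic interval of the reported median. The share of members with a shared region crossed to the other side of the reference under 5: 23.4% against 25.5% at 2500 bp and 14.3% against 15.0% with summits within 100 bp (reported within 1 kb as 19.5%), and 31.2% against 33.9% at 5 kb, 40.3% against 41.0% with summits within 100 bp and 42.9% against 44.8% with the summit within the distance (reported within 10 kb as 46.8%). The other moves followed from fewer or more regions counted, or from using the start. With −log10 q of at least 10, FOSL2-only at 1 kb fell to 15.6% (reference 14.4%) and JUNB-only at 10 kb to 20.8% (reference 12.4%), so the gap to other genes narrowed for the first, from 9.94 to 1.15 points, and widened for the second, from 4.34 to 8.39. For JUNB-only at 1 kb it widened from 4.76 to 7.05 points. Without regions narrower than 400 bp, JUNB-only at 10 kb was 22.1% (reference 17.1%). At 50 kb JUNB-only, shared and FOSL2-only reached 64.9, 83.1 and 89.6% (references 55.7, 79.1 and 88.7%). FOSL2-only at 10 kb was 42.9% at 5 kb (reference 37.5%) and 44.9% around the start alone (reference 40.1%). Of the regions within 1 kb, shared and single-factor together, 12 of 36 FOSL2 and 8 of 31 JUNB regions had a −log10 q under 10.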

Other observations

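The SP element was in 62.2% of the windows of members with a region at the start and 59.4% of those without, against 70.6 and 51.0% over all genes. NRF1 was in 10.8 and 6.25%, against 5.15 and 3.53%. These differences were not tested. MRPL17, MRPS18B and MRPS18C, all with FOSL2 and no JUNB within 1 kb of the start, held 3 of the 6 NRF1 windows, and MRPL32, with a shared region, held another. The rest were those of MRPL22 and MRPL52, with neither factor there. Over all genes NRF1 was in 4.66% of windows with FOSL2 and 5.22% with JUNB within 1 kb of the start. Genes with FOSL2 and no JUNB were not counted separately.

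MRPL28 paired one of the strongest JUNB regions of its list with a FOSL2 region of below-median strength at the same summit distance, and MRPS18A showed the reverse order, with a FOSL2 region higher than 79.0% of its list and a JUNB region higher than 47.4%. These were noticed in the data and are given as values.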
